A study of Homo sapiens with 4 samples.

Results

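The mitochondrial ribosomal protein genes are the nuclear genes that encode the protein shell of the ribosome inside mitochondria. They were taken as every row of the deposited table whose symbol is MRPL or MRPS followed by a number and at most 1 letter from A to C. This gave 75 of 14431 listed genes, and all 75 passed the filter of a mean of at least 1 CPM (read counts scaled to the library size) in 1 group, which left 14199 genes to test. By the position of each protein in the ribosome, 48 members belong to the large subunit and 26 to the small subunit. MRPS30 and MRPS18A carry small subunit names but sit in the large subunit. MRPS36 was counted with neither subunit, because its product is now placed in the 2-oxoglutarate dehydrogenase complex. Of the 74 ribosomal members, 45 have a counterpart in the bacterial ribosome and 29 are specific to mitochondria. MRPL30 was not among the listed genes.

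RNA was measured by sequencing in HGC27 cells, a human gastric cancer line. There were 2 control libraries and 2 libraries of cells in which AARS1, the cytosolic alanyl-tRNA synthetase, was knocked down by small interfering RNA (siAARS1). The cells of all 4 libraries grew in DMEM without glucose, with serum and 25 mM lactate, so lactate itself was not a variable here. Per the labels the lactate was given for 24 h, whereas the study's text states another time, so the exposure is uncertain. The labels do not tie replicates to separate cultures, so the p-values measure only the spread between these libraries, which may be technical.

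The mitochondrial ribosome makes the few proteins that the mitochondrial genome encodes, all of them subunits of the respiratory chain and ATP synthase. Its RNAs come from mitochondrial DNA, while every one of its proteins is made in the cytosol from a nuclear gene and imported. Many promoters of such genes hold letters bound by the factors NRF1, YY1 or GABP, the last an ETS family factor, and these are commonly described as shared regulators of the nuclear genes of mitochondria.

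The promoters of 5 members are shown because they belong to the members with the lowest and the highest change (MRPL28 and MRPL1) and to the 3 paralogs of bacterial ribosomal protein S18, which differed in their values. The sequences are from RefSeq on GRCh38.p14 and run from 250 bases before to 50 bases after the RefSeq start, on the gene's strand. By the GENCODE v29 loci given further on, the windows of MRPL28 and MRPL1 lie inside the gene. Matches and their distances therefore depend on the start chosen. MRPL28 lies at chr16:370489-370788 (minus strand), MRPL1 at chr4:77862580-77862879 (plus), MRPS18A at chr6:43687742-43688041 (minus), MRPS18B at chr6:30617590-30617889 (plus) and MRPS18C at chr4:83455808-83456107 (plus). Capitals mark matches on either strand to the letters CCGGAAG (ETS), AAGATGGC (YY1) and GCGCNTGCG (NRF1, with 1 free base).
MRPL28: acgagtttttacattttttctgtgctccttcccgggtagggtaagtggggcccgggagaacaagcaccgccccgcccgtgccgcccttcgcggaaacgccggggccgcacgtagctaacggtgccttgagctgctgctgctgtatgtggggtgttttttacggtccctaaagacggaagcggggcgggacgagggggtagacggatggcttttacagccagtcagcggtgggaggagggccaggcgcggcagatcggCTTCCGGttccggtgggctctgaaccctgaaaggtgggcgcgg
MRPL1: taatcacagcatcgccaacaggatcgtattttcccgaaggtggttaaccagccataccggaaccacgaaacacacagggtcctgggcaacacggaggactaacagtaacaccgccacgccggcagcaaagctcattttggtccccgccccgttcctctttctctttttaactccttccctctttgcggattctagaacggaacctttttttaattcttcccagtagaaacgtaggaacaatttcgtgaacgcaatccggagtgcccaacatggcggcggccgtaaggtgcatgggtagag
MRPS18A: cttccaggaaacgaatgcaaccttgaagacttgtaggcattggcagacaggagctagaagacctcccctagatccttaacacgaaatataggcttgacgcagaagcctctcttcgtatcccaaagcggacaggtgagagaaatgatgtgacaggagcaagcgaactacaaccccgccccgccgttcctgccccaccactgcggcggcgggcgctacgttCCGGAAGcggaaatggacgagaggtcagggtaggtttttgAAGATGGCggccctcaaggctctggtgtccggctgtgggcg
MRPS18B: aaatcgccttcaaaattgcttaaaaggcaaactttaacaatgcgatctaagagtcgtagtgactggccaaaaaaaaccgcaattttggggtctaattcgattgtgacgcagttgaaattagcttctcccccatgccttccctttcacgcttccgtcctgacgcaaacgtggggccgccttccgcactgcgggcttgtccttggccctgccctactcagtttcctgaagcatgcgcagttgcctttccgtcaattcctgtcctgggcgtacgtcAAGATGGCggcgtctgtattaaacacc
MRPS18C: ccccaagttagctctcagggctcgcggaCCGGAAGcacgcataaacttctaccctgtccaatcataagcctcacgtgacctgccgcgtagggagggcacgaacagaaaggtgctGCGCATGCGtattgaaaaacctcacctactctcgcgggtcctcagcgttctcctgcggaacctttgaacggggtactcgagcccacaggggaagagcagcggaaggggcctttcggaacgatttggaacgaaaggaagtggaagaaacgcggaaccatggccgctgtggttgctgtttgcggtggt
The MRPL28 window held 1 ETS match starting 7 bases after the start, on the other strand, and the MRPL1 window held none of the 3 motifs. MRPS18A held an ETS match 31 bases before and a YY1 match 9 bases after the start, MRPS18B only a YY1 match 23 bases after it, and MRPS18C an ETS match 222 and an NRF1 match 136 bases before it. A match is a description of letters and does not show that a factor binds there.

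Promoter windows were given for 66 of the 75 members. ETS letters occurred in 27 of these 66 (40.9%), against 19.1% of the promoters of 9652 genes tested and 10.7% of all 27305 promoters in the table. YY1 letters occurred in 20 of 66 (30.3%), against 5.51% and 3.03%. The NRF1 letters with 1 free base occurred in 9 of 66 (13.6%), against 15.1% and 8.05%, and the form GCGCATGCG in 3 (4.55%), against 3.82% and 2.10%. Both strands were searched, and overlaps between motifs were not removed. Of 36 ETS matches, 26 started within the 100 bases before the gene's start, and of 21 YY1 matches, 15 started within the 50 bases after it, with a median of 9 bases. By the calls described further on, ETS letters were in 12 of 27 promoters of members called lower, 4 of 14 called higher and 11 of 25 not called, and YY1 letters in 6, 5 and 9 of them.

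The knockdown and the libraries were checked first. AARS1 (listed as AARS) had 428 and 417 CPM in the controls against 292 and 298 CPM after knockdown, which is 69.7% of the control mean. Depth was 30653210 to 33522573 reads over listed genes, and 1 read equalled 0.0293 to 0.0324 CPM. Of the markers fixed for the cell label, EPCAM, KRT18, KRT19 and all 6 gastric mucosa markers were not among the listed genes, nor were CDH2 and the blood and endothelial markers PTPRC and PECAM1. KRT8 (25.0 to 5.85 CPM) and CDH1 (2.22 to 0.867 CPM) were lower and ZEB1 (6.50 to 51.2 CPM) was higher in siAARS1 cells, and VIM was abundant in both groups (5099 and 4655 CPM). How these epithelial and mesenchymal genes relate to the members was not tested.

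Members moved in both directions. With limma on log2(CPM + 1) and an adjusted p under 0.05, 32 of 75 members were called lower in siAARS1 cells and 17 higher, while 26 were not called. The background over all genes tested was 38% called lower and 32.6% called higher. Both siAARS1 libraries were below both controls in 36 members and above both in 23, against backgrounds of 46.6% and 38.5%. The remaining 16 members had overlapping groups. The median log2 fold change of the members was -0.082, and that of all genes tested was -0.054. On this scale only MRPL1 changed by 2-fold or more, as 1741 of the 14199 genes tested did. Log2 fold changes of members ranged from -0.46 (MRPL28) to 1.46 (MRPL1).

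**Figure D1:**
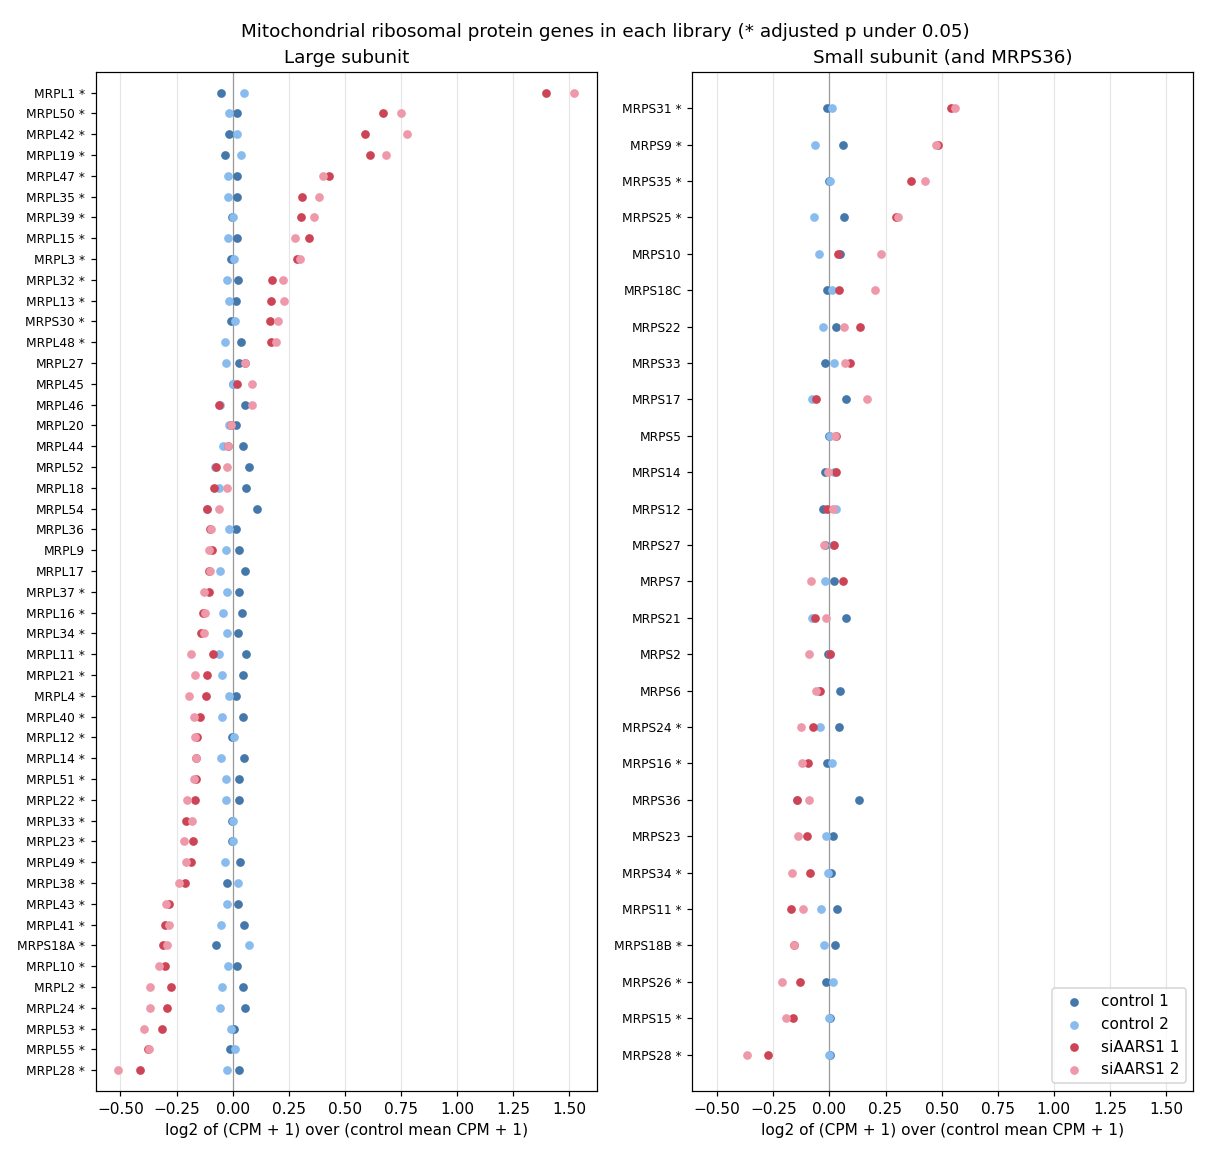
Each row is 1 member, sorted by change, and each point is 1 library, plotted as the log2 of (CPM + 1) over the mean control (CPM + 1). Blue points are the 2 control libraries and red points the 2 siAARS1 libraries, and a star marks an adjusted p under 0.05. MRPL1 at 1.46 stands alone above the other members, and 26 members carry no star.

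The split of the calls depended on how the values were scaled. After each library was divided by its median CPM, 53 members were called lower and 9 higher, with a background of 56.3% and 23.8%, because this scaling moved the median over all genes tested to -0.26 (log2) and that of the members to -0.30. The edgeR quasi-likelihood test on the recovered reads with TMM scaling called 22 lower and 19 higher (background 34.3% and 34.7%). DESeq2 called 16 lower and 18 higher, without a share over all genes to set beside these counts. Values were also corrected for the smooth trend of each library with transcript GC content and length (the GC and length correction), or with the properties of the coding sequence and 3' UTR (the coding correction). These 2 corrections changed many calls and are given beside the genes they touch. A single library weighed on the members. Without control replicate 1 their median log2 fold change was -0.026, above that of all genes tested at -0.050. That library was above control replicate 2 in 52 of 75 members, by a median of 2.96%, while over all genes it was lower by a median of 1.03%.

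Summed over the 75 members, the deposited CPM were 5972 and 5809 in control and 5808 and 5787 in siAARS1 libraries. The groups did not overlap, but the gap between control replicate 2 and siAARS1 replicate 1 was smaller than the gap between the controls. The siAARS1 mean was 98.4% of the control mean. Over the same libraries the 84 cytosolic ribosomal protein genes summed to 86.2% and the 77 nuclear genes of oxidative phosphorylation to 89.6% of control. CPM is relative to the library total, so a sum that keeps its share does not give the amount of RNA per cell, and fewer transcripts per cell and fewer cells of a kind cannot be told apart in these bulk libraries.

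By subunit the counts as deposited are read against the background of 38% lower and 32.6% higher. For the GC and length correction this background was 33.4% and 32.4%, and for the coding correction 31.9% and 33.9%. Of 48 large subunit members, 24 were called lower and 13 higher, with a median log2 fold change of -0.11. Under the GC and length correction these became 7 lower and 19 higher, and under the coding correction 3 lower and 30 higher. Of 26 small subunit members, 8 were called lower and 4 higher, with a median of -0.0058, and the corrections gave 7 lower with 10 higher and 1 lower with 16 higher. Among members with a bacterial counterpart 20 of 45 were lower and 9 higher. Among those specific to mitochondria 12 of 29 were lower and 8 higher. These shares of lower calls as deposited (44.4% and 41.4%) were near the background of 38%. These differences between groups of members were not tested.

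The L1 stalk and the L7/L12 stalk are the mobile arms of the large subunit. MRPL1 (ENSG00000169288, chr4:77862520-77952790 on GRCh38 in GENCODE v29), the protein of the L1 stalk, which in bacteria guides the spent tRNA out of the ribosome, had 9.003 and 9.74 CPM in the controls against 26.3 and 28.8 CPM after knockdown. These values rest on 307, 309, 813 and 956 reads. Both siAARS1 libraries were well above both controls, with a 2.94-fold higher mean, a log2 fold change of 1.46 ± 0.085 (SE) and a limma adjusted p of 1.42e-12. In the whole table the rise of MRPL1 ranked 842 from the highest among 14199 genes. MRPL10, which anchors the L7/L12 stalk, had 100.03 and 97.1 CPM in the controls against 79.9 and 78.3 CPM after knockdown, and its log2 fold change was -0.31 ± 0.045 (limma adjusted p = 2.44e-06). MRPL12, the protein of that stalk, which meets the translation factors, had 117 and 117 CPM against 105 and 104 CPM, with a log2 change of -0.16 ± 0.042 (limma adjusted p = 0.00178). MRPL11, at the base of the same stalk, had 149 and 137 CPM against 135 and 126 CPM, and its limma adjusted p was 0.0128. All 3 genes of the L7/L12 stalk had control libraries above both siAARS1 libraries, but MRPL11 was not called by edgeR (adjusted p = 0.0705). Their lower values did not hold under the GC and length and the coding corrections, which gave 0.18 and 0.20 for MRPL12 (called higher in both), 0.032 and 0.18 for MRPL11 (called higher in the second) and -0.056 and 0.037 for MRPL10 (called in neither). MRPL1 stayed higher at 1.01 and 0.81. A difference between the stalks was not tested. MRPL53, a protein of the mitochondrial ribosome only that lies near this stalk, had 59.7 and 59.2 CPM against 47.5 and 44.9 CPM. This was 77.7% of control, or -0.36 in log2 (limma adjusted p = 4.11e-06). Under the 2 corrections it was still called lower, but at -0.14 and -0.11.

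Around the catalytic centre and the exit tunnel, members moved both ways as deposited, and several of these changes did not hold after correction. MRPL2, whose bacterial counterpart helps form the peptidyl transferase centre, had 53.0 and 49.6 CPM in the controls against 42.3 and 39.5 CPM after knockdown (log2 fold change -0.32 ± 0.058, limma adjusted p = 4.62e-05). MRPL3, which also reaches towards that centre, had 108 and 109 CPM against 133 and 134 CPM (0.29 ± 0.041, limma adjusted p = 2.03e-06). As deposited MRPL2 fell and MRPL3 rose. This contrast was gone under the GC and length correction (-0.036 and -0.017) and the coding correction (-0.027 and 0.015), where neither was called. MRPL4, which lines the tunnel for the growing chain, had 259 and 254 CPM against 236 and 224 CPM (-0.16 ± 0.039, limma adjusted p = 0.00114). MRPL24, a protein of early assembly near the tunnel, had 109 and 101 CPM against 85.9 and 81.4 CPM (-0.33 ± 0.048, limma adjusted p = 3.33e-06). MRPL47, the counterpart of bacterial L29 at the tunnel exit, had 24.2 and 23.5 CPM against 32.5 and 31.8 CPM (0.42 ± 0.066, limma adjusted p = 9.45e-06). MRPL4 was called higher under both corrections (0.21 and 0.26), MRPL24 was called under neither, and MRPL47 was -0.060 under the GC and length correction and 0.15 under the coding correction. MRPL45, which holds the ribosome at the inner membrane, had 69.5 and 69.4 CPM against 70.4 and 73.9 CPM and was not called (limma adjusted p = 0.332).

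Other large subunit proteins with bacterial counterparts included the member that fell most. MRPL28 (ENSG00000086504, chr16:366969-371289) had 116 and 111 CPM in the controls against 84.8 and 79.4 CPM after knockdown, 72.4% of control, at a log2 change of -0.46 ± 0.046 (limma adjusted p = 1.36e-08). Its locus overlaps TMEM8A on the same strand, another listed gene. MRPL55, the counterpart of bacterial L31, had 58.1 and 59.2 CPM against 44.9 and 45 CPM, 76.7% of control (limma adjusted p = 1.59e-06). In both genes each control library was above each siAARS1 library. Under the GC and length and the coding corrections MRPL28 was still called lower, but at -0.12 and -0.092. MRPL55 was at -0.099 and -0.049 and was called in neither. MRPL19, which takes part in the contact between subunits, had 80.0 and 84.0 CPM against 126 and 132 CPM, 157% of control (log2 fold change 0.65 ± 0.045, limma adjusted p = 3.48e-11). MRPL13 had 277 and 271 CPM against 308 and 321 CPM (0.20 ± 0.037, limma adjusted p = 6.59e-05), although its log2 fold change was -0.029 after median scaling. Per length MRPL13 was the most abundant member in control cells, at 252 CPM per kb of transcript, followed by MRPS24 at 249.7 and MRPL4 at 194. The median over the members was 52.1 CPM per kb, against 7.59 over all genes tested.

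Of the 19 large subunit proteins specific to mitochondria, 9 were called lower and 5 higher, with a median log2 fold change of -0.082. The same calls over all genes tested were 38% lower and 32.6% higher. MRPL50 and MRPL42 were among the 8 highest members. MRPL50 had 35.1 and 34.2 CPM in the controls against 55.7 and 59.0 CPM after knockdown (log2 fold change 0.71 ± 0.056, limma adjusted p = 2.71e-10). MRPL42 had 30.6 and 31.4 CPM against 47.1 and 53.9 CPM (0.68 ± 0.064, limma adjusted p = 4.94e-09). MRPL39, which resembles a threonyl-tRNA synthetase, had 17.7 and 17.7 CPM against 22.1 and 23.1 CPM (0.34 ± 0.075, limma adjusted p = 0.000486). Each of these 3 genes was higher in both siAARS1 libraries than in both controls, but MRPL50 was called lower at -0.49 under the GC and length correction, and MRPL39 was called under neither correction. MRPS30, a large subunit protein despite its name, had 77.0 and 77.9 CPM against 86.9 and 89.3 CPM (0.18 ± 0.046, limma adjusted p = 0.00119), with a log2 fold change of -0.042 after median scaling. MRPL37 had 167 and 161 CPM against 152 and 150 CPM (-0.12 ± 0.040, limma adjusted p = 0.0135), and was called higher under both corrections (0.18 and 0.17). MRPL44, which carries a fold like that of ribonuclease III, had 43.8 and 41.1 CPM against 41.8 and 41.8 CPM, so its siAARS1 values lay between its controls (limma adjusted p = 0.774).

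Of the 3 paralogs of bacterial S18, limma called MRPS18A and MRPS18B lower and did not call MRPS18C. MRPS18A, which sits in the large subunit, had 51.6 and 57.2 CPM in the controls against 43.6 and 44.2 CPM after knockdown (log2 fold change -0.30 ± 0.058, limma adjusted p = 9.25e-05). MRPS18B, in the small subunit, had 87.6 and 84.6 CPM against 77.0 and 77.2 CPM (-0.16 ± 0.046, limma adjusted p = 0.00447). MRPS18C, which takes the place of S18 in the small subunit, had 42 and 42.8 CPM against 43.7 and 49.0 CPM (0.12 ± 0.060) and was not called by limma (adjusted p = 0.0735). Its groups did not overlap, and edgeR called it higher (adjusted p = 0.0195). The GC content of the transcript fell in the same order, at 57.3% in MRPS18A, 52.7% in MRPS18B and 38.0% in MRPS18C. The GC and length correction moved MRPS18C from the highest to the lowest of the 3, with -0.00017, 0.073 and -0.45 in the same sequence. The coding correction gave 0.050, 0.15 and -0.018. After median scaling MRPS18C was at -0.10. A test of the difference between these genes was not made.

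In the small subunit 14 of 26 members were not called, and in 9 of the 26 the groups overlapped. Of the 14199 genes tested, 4167 were not called and 2113 had overlapping groups. The difference from the small subunit was not tested. MRPS12, part of the decoding centre, had 49.9 and 52.0 CPM in the controls against 50.6 and 51.5 CPM after knockdown (limma adjusted p = 0.960). MRPS27, which has pentatricopeptide repeats, had 182 and 187 CPM against 187 and 181 CPM (limma adjusted p = 0.991). In both genes the groups overlapped. MRPS9, whose bacterial counterpart reaches the peptidyl tRNA, had 48.0 and 43.9 CPM against 64.6 and 64.2 CPM, 140% of control (log2 fold change 0.48 ± 0.055, limma adjusted p = 8.95e-08). MRPS31 had 10.97 and 11.2 CPM against 16.6 and 16.8 CPM, 151% of control (0.55 ± 0.087, limma adjusted p = 9.33e-06). MRPS35 had 50.9 and 51.0 CPM against 65.7 and 68.8 CPM, 132% of control (0.39 ± 0.051, limma adjusted p = 5.69e-07). These 3 genes and MRPS25 were the only small subunit members called higher as deposited. Under the GC and length and the coding corrections MRPS31 was at 0.16 and 0.14 and was called in neither. MRPS35 was at -0.053 and 0.10, called only in the second, and MRPS9 at 0.41 and 0.27, called in both. MRPS28 had 17.5 and 17.4 CPM against 14.2 and 13.3 CPM (-0.32 ± 0.084, limma adjusted p = 0.00193) and fell the most of the small subunit. MRPS24, the counterpart of bacterial S3 at the entry of the mRNA, had 182 and 171 CPM against 168 and 162 CPM, and its limma adjusted p of 0.0387 was not matched by edgeR (adjusted p = 0.208), while both corrections called it higher (0.17 and 0.20). MRPS36, no ribosomal protein, had 33.7 and 27.7 CPM against 27.7 and 28.8 CPM and was not called (limma adjusted p = 0.200).

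**Figure D2:**
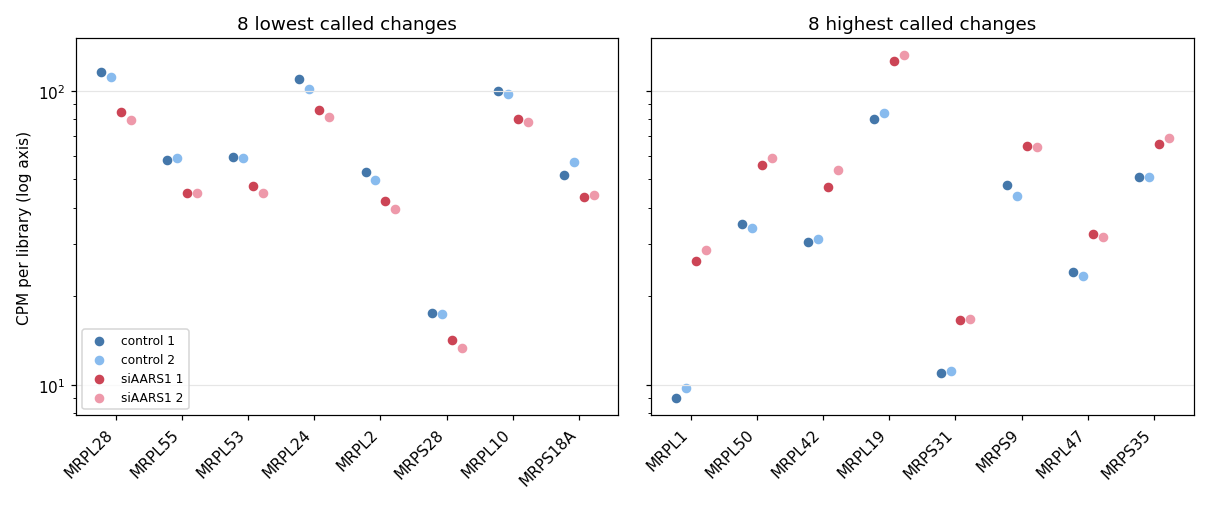
CPM in each library, on a log axis, of the 8 members with the lowest and the 8 with the highest called log2 fold changes. Blue points are control and red points siAARS1 libraries, and the groups do not overlap in any of the 16 genes. MRPL1 went from 9.003 and 9.74 CPM to 26.3 and 28.8 CPM, and MRPL28 from 116 and 111 CPM to 84.8 and 79.4 CPM.

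The changes of the members were ordered by base composition. Across the 75 members the Spearman correlation of the log2 fold change with the GC content of the transcript was -0.65, and across 13969 genes tested it was also -0.65. The points share the same 4 libraries and genes are not independent replicates, so these values are descriptions. With transcript length the correlation was 0.24 over members and 0.27 over all genes. Among the 25 members of lowest GC content (35.0% to 46.4%) 14 were called higher and 3 lower, with a median log2 fold change of 0.20. Among the 25 of highest GC content (53.0% to 71.9%) 21 were called lower and none higher, with a median of -0.17. The middle 25 held 8 lower and 3 higher. Background shares over all genes tested, of any GC content, were 38% lower and 32.6% higher. The shares among other genes of like GC content were not counted, so these splits are not particular to the members. The 3 lower members of low GC content were MRPS28, MRPL22 and MRPL33, named after their values were seen. MRPL50 had a transcript of 35.0% GC and MRPL1 of 39.1%, while MRPL28 was in the group of highest GC content at 62.2%.

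**Figure D3:**
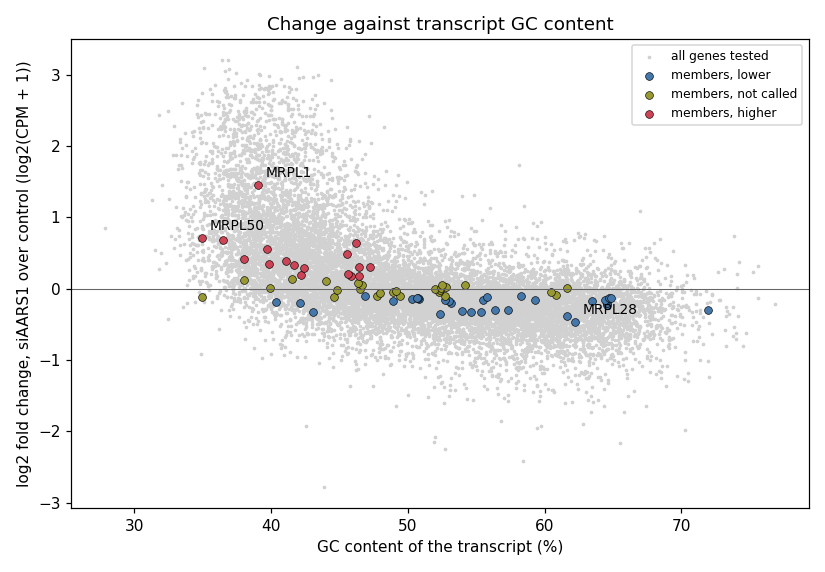
Log2 fold change (siAARS1 over control) against the GC content of the transcript, with the genes tested as grey points and the 75 members as larger points coloured by their call. Members lie along the slope of the whole table, with Spearman correlations of -0.65 in both.

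Taking this slope out of the values changed the direction of many calls. After each library was corrected for its smooth trend with GC content and length, 15 members were called lower and 29 higher (background 33.4% and 32.4%). Of the 32 members called lower as deposited, 10 were then called higher, MRPL4, MRPL12, MRPL37 and MRPS24 among them. MRPL50 went from 0.71 to -0.49 and was called lower. For MRPL47 and MRPS35 the corrected log2 fold changes were -0.060 and -0.053, for MRPL3 -0.017 and for MRPS18C -0.45. MRPL10 and MRPS18A kept values of -0.056 and -0.00017, neither of them called, and MRPL2, MRPL24 and MRPL55 were called under neither correction. With a correction on the coding sequence and 3' UTR instead, 5 members were called lower and 46 higher (background 31.9% and 33.9%), and MRPL50 kept its direction. On that scale MRPL10 was at 0.037 and MRPS18A at 0.050. Any real difference that tracks these properties is removed as well, so the corrections do not show which set of values is nearer to the cells.

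Of the members, 7 were called in the same direction under all 10 of these treatments, namely the deposited values, edgeR with TMM, both corrections, median scaling, quantile normalization and each of the 4 fits that left out 1 library. MRPL28, MRPL53 and MRPS28 were lower, and MRPL1, MRPL19, MRPL42 and MRPS9 were higher. The share of all genes tested that keeps its call under all 10 was not counted, so these 7 have no background. The same call did not mean the same size. Under the GC and length and the coding corrections MRPL28 went from -0.46 to -0.12 and -0.092. MRPL53 went from -0.36 to -0.14 and -0.11, while MRPL19 kept 0.64 and 0.69. MRPS28 fell although its transcript had 43.1% GC, as did MRPL22 at 40.4% and MRPL33 at 42.1%. Under the GC and length correction the log2 fold changes of these 3 genes were -0.39, -0.95 and -0.21. Under the coding correction they were smaller, at -0.21, -0.24 and -0.11, and MRPL33 was not called. The first correction rests on the transcript taken for each gene, which for MRPL22 had 3176 bases.

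**Figure D4:**
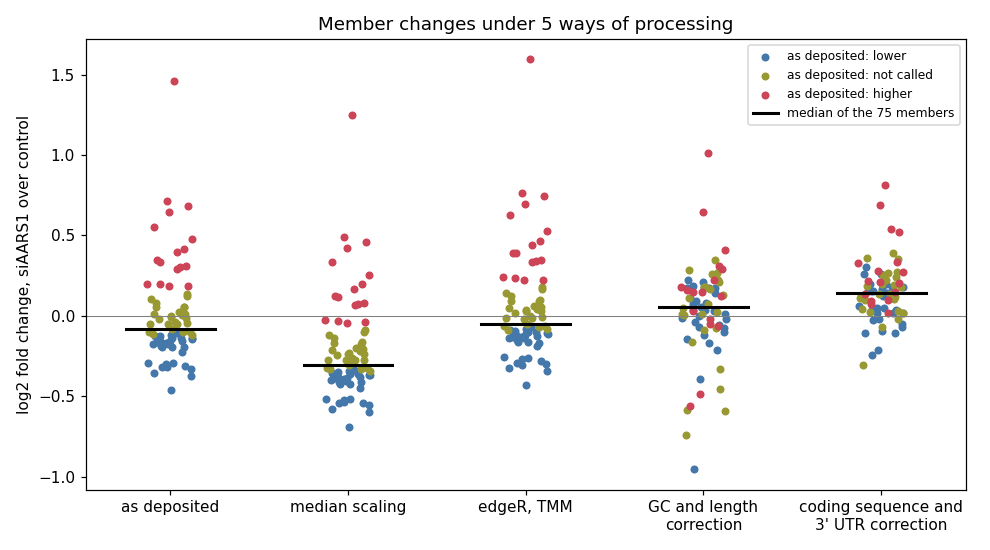
Log2 fold changes of the 75 members under 5 ways of processing, with each point coloured by its call on the deposited values and the black bar at the median of the members. The median is -0.082 as deposited, -0.30 after median scaling, -0.053 with edgeR, 0.053 after correction for GC content and length and 0.14 after correction on the coding sequence and 3' UTR.

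The counting limits some loci. Of the members, 26 overlap a listed gene on the other strand and 9 a listed gene on the same strand. MRPL28, MRPL53 and MRPL19, which kept their calls under all 10 treatments, are among these 9. Whether the counting used strand is not given in the sources used here. Processed pseudogenes named after 32 members are annotated, 69 in all, of which 2 were listed. The listed copies were those of MRPL45 and MRPS31. MRPL42 and MRPL53, whose calls also held under all treatments, have 4 and 1 annotated copies. Members with such copies were lower in 12, higher in 9 and not called in 11, with a background of 38% lower and 32.6% higher. Reads shared with a copy could have been placed on either.

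The rest of the mitochondrial translation machinery was followed through lists fixed with the members. For each list here the background was 38% lower and 32.6% higher as deposited, and 56.3% and 23.8% under median scaling. Under the GC and length correction it was 33.4% and 32.4%, and under the coding correction 31.9% and 33.9%. Of 7 mitoribosomal proteins with other symbols, 6 were called lower and 1 higher, with a median log2 fold change of -0.20. The lower calls were 3 without siAARS1 replicate 2 and 3 with DESeq2, and the corrections gave 3 lower with 3 higher and 1 lower with 3 higher. PTCD3, a small subunit protein with pentatricopeptide repeats, rose from 61.7 and 66.4 CPM to 135 and 140 CPM (1.09 ± 0.047, limma adjusted p = 7.01e-15). MRP63 of the large subunit fell from 67.3 and 64.8 CPM to 55.3 and 53.5 CPM (-0.28 ± 0.051, limma adjusted p = 5.81e-05). MRP63 was at 0.033 once corrected on the coding sequence and 3' UTR.

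Of 28 assembly factors of the mitochondrial ribosome, 7 were called lower and 6 higher (median 0.023). The split moved with the processing. Median scaling gave 17 lower and 4 higher (background 56.3% and 23.8%). The GC and length correction gave 8 lower and 16 higher (background 33.4% and 32.4%). FASTKD2, which acts on the large subunit rRNA, had 15.3 and 15.8 CPM in the controls against 51.2 and 51.5 CPM after knockdown (1.66 ± 0.065, limma adjusted p = 1.43e-15). GTPBP10, a GTPase of large subunit assembly, had 11.2 and 10.3 CPM against 20.3 and 21.8 CPM (0.91 ± 0.087, limma adjusted p = 5.99e-09), but its value after the GC and length correction was -0.62. Of 16 mitochondrial translation factors, 5 were lower and 9 higher (median 0.27), with 7 lower and 6 higher under median scaling, 4 and 5 under the GC and length correction, 3 and 5 under the coding correction and 3 lower without control replicate 2. LRPPRC, which stabilizes mitochondrial mRNAs, had 89.7 and 97.2 CPM against 428 and 449 CPM, a 4.69-fold higher mean (2.22 ± 0.043, limma adjusted p = 1.71e-20). MTIF2, the mitochondrial initiation factor that brings the first tRNA, had 19.6 and 19.6 CPM against 61.9 and 64.9 CPM (1.64 ± 0.060, limma adjusted p = 4.27e-16). Both exceeded the rise of every member, and both kept their direction under the corrections.

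Of 20 mitochondrial aminoacyl-tRNA synthetases, 4 were lower and 6 higher (median 0.053). Median scaling gave 12 lower and 2 higher, where 56.3% of all genes tested were called lower and 23.8% higher. Quantile normalization gave 9 lower and 3 higher. The split moved with the scaling, as did the calls over all genes under median scaling. IARS2, for isoleucine, had 150 and 152 CPM in the controls against 244 and 246 CPM after knockdown (0.70 ± 0.038, limma adjusted p = 4.22e-13), and its value was -0.26 once corrected on the coding sequence and 3' UTR. WARS2, for tryptophan, had 14.4 and 14.1 CPM against 22.1 and 24.6 CPM (0.67 ± 0.081, limma adjusted p = 2.30e-07). AARS2, the mitochondrial alanyl-tRNA synthetase and paralog of the targeted gene, had 35.5 and 35.1 CPM against 32.7 and 31.6 CPM and was not called (-0.13 ± 0.061, limma adjusted p = 0.0606). Of 21 genes of mitochondrial RNA synthesis and processing, 5 were lower and 14 higher (median 0.28), with 7 lower and 10 higher under median scaling and 2 lower and 15 higher under the GC and length correction. MTERF, a transcription termination factor, had 4.58 and 5.55 CPM against 15.6 and 17.2 CPM (1.53 ± 0.11, limma adjusted p = 4.24e-11). FASTKD1, an RNA-binding protein of mitochondria, had 12.4 and 13.9 CPM against 33.8 and 37.7 CPM (1.37 ± 0.080, limma adjusted p = 1.25e-12), and -0.37 once corrected on the coding sequence and 3' UTR. POLRMT, the mitochondrial RNA polymerase, fell from 169 and 179 CPM to 150 and 144 CPM (-0.24 ± 0.042, limma adjusted p = 2.99e-05), but was 0.15 after the GC and length correction. TFAM, which packages mitochondrial DNA and starts its transcription, rose from 25.7 and 27.2 CPM to 58.8 and 66.3 CPM (1.21 ± 0.064, limma adjusted p = 2.29e-13), but was -0.035 after that correction.

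Of the factors known for nuclear genes of mitochondria, the DNA-binding subunit of GABP changed most. GABPA had 4.46 and 5.52 CPM in the controls against 26.8 and 27.9 CPM after knockdown, a 5.49-fold higher mean (log2 fold change 2.25 ± 0.10, limma adjusted p = 1.22e-14), and stayed higher under both corrections. NRF1 had 19.1 and 22.2 CPM against 20.7 and 22.7 CPM, with overlapping groups (limma adjusted p = 0.450). PPARGC1B, a coactivator of this programme, had 33.4 and 33.3 CPM against 42.8 and 41.5 CPM (0.33 ± 0.059, limma adjusted p = 3.79e-05). MYC had 362 and 372 CPM against 397 and 381 CPM (0.083 ± 0.036, limma adjusted p = 0.0460), a call that was lost in 3 of the 4 fits without 1 library and that became -0.15 after median scaling. In all, 1 of 10 regulators was called lower and 6 higher, and PPARGC1A was not listed. The higher calls were 3 without control replicate 1, and median scaling gave 4 lower and 1 higher. RNA levels do not give the activity of these factors, and no binding was measured here.

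The cytosolic ribosome and the respiratory complexes gave larger shares of lower genes, with 79.8% and 70.1% called lower against 42.7% of the members. Of 84 cytosolic ribosomal protein genes 67 were called lower and 5 higher (median -0.22), and of 77 nuclear oxidative phosphorylation genes 54 were lower and 7 higher (median -0.17). The GC and length correction left 44 and 27 of them lower, with 8 and 10 higher, and the coding correction 36 and 20 lower, with 10 and 16 higher. In the first group RPL7 had 1388 and 1414 CPM against 1846 and 1926 CPM. In the second group NDUFA5 of complex I had 39.5 and 37.7 CPM against 64.1 and 71.5 CPM, and ATP5F1 of ATP synthase had 164 and 169 CPM against 229 and 241 CPM. The difference between these groups and the members was not tested.

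**Figure D5:**
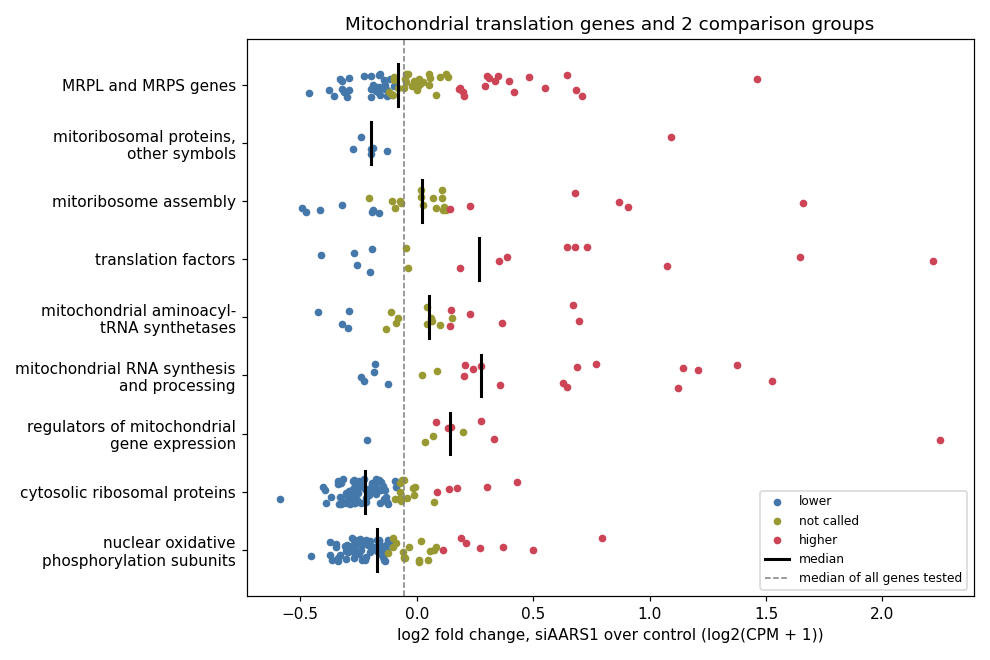
Log2 fold changes of the members and of 8 other gene lists, with each point 1 gene coloured by its call, black bars at the medians of the lists and the dashed line at the median of all genes tested (-0.054). The medians are -0.082 for the members, -0.22 for cytosolic ribosomal proteins and 0.28 for mitochondrial RNA synthesis and processing.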

How the data were processed

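RNA of 2 control and 2 siAARS1 libraries of HGC27 cells was analysed, grouped by the sample titles. The authors deposited 1 table of CPM values per gene; the submitters' processing notes name RSEM 1.3.3 and hg38, and the use of strand is not given in the sources used here. CPM leaves differences in gene length and GC content in place. All values (100%) were whole multiples of 1 read, within about 0.02 reads, so reads were recovered. The library sizes behind the CPM were 0.749% to 1.89% above the sums of listed reads. Replicates differed by more than sampling noise (chi-square per gene 3.63 in control and 3.62 in siAARS1). At this depth a count of 3 reads, the limit that 0 reads allow, is 0.0880 to 0.0971 CPM, for counting error only.

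The main test was limma 3.58.1 (R 4.3.3) on log2(CPM + 1), siAARS1 against control, over the 14199 genes whose mean reached 1 CPM in either group, with 2-sided p-values adjusted by Benjamini-Hochberg over all of them and a threshold of 0.05. Fold changes on this scale understate changes of low genes. On the recovered reads, edgeR 4.0.16 called 4874 genes lower and 4932 higher, and DESeq2 1.42.0 was a further alternative. Scripts were tested on simulated data. Corrections took a smooth trend (mgcv 1.9.3) on transcript properties of GENCODE v29 out of each library. Of the members, 73 were located by identifier and 2 by symbol. Other alternatives were other scalings, filters, pseudocounts, thresholds, a replicate block and leaving out each library. Members and lists were chosen with earlier results of these data known. Genes named with values were AARS1, AARS2, the 8 lowest and 8 highest called members without overlap, the 3 highest per kb, members chosen for their roles, the called genes of largest change per list (at most 2), and NRF1, GABPA, TFAM, POLRMT and MYC. No amino acid sequences were used. A result of 1 gene that the rule would name is not reported here.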

Additional observations from a re-analysis of the deposited data

How the results depend on the processing

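Counts of members called lower moved from 32 to 53 under median scaling, 16 under DESeq2, 21 under edgeR with at least 10 reads in every library, 15 under the GC content and length correction (with or without the replicate block) and 5 under the coding sequence and 3' UTR correction, and to between 18 (without control replicate 1) and 33 when 1 library was left out. Counts called higher moved from 17 to 9 under median scaling, 29 and 46 under the corrections, and lay between 16 and 19 when 1 library was left out. The members' median minus that of all genes, -0.028, was 0.063 (with or without the block) and 0.14 under the corrections, 0.0063 under quantile normalization, and -0.063 to 0.025 when 1 library was left out. Quantile normalization called 44 members lower and 15 higher, without a share over all genes to set beside these counts. The replicate block called 35 lower and 19 higher. With 2 pairs and a correlation of 0.12 between same-numbered libraries, the numbers were not taken to pair them.

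Log2 fold changes of genes named with values that turned, and were called before or after, were, under the GC content and length correction with or without the block, MRPL50 -0.49, MRPL47 -0.060, MRPS35 -0.053, MRPL3 -0.017, MRPS18C -0.45, GTPBP10 -0.62, TFAM -0.035, MRPS24 0.17, MRPL4 0.21, MRPL12 0.18, MRPL11 0.032, MRPL37 0.18, MRPS18B 0.073, AARS2 0.20 and POLRMT 0.15. Under the coding sequence and 3' UTR correction they were MRPL10 0.037, MRPS18A 0.050, MRPS24 0.20, MRPL4 0.26, MRPL12 0.20, MRPL11 0.18, MRPL37 0.17, MRPS18B 0.15, AARS2 0.23, MRP63 0.033, POLRMT 0.079, GTPBP10 -0.38, IARS2 -0.26 and FASTKD1 -0.37. Under median scaling they were MRPL13 -0.029, MRPS12 -0.22, MRPL45 -0.17, MRPS30 -0.042 and MYC -0.15, as well as MRPL32 -0.025, with MRPS18C at -0.10 and not called before or after, and under quantile normalization MRPS12 -0.13. The corrections remove trends with base composition by construction, and what sets these trends was not tested. MYC had no value under the second correction. Of the members, MRPL1 had the fewest reads in the controls, 307 and 309.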

Other observations

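Some mitochondrial ribosomal protein genes share a promoter region with a neighbour that is read the other way. There were 18 pairs of a member and a protein-coding gene whose starts lay within 1000 bases in a head-to-head order or overlapped by up to 300 bases, and in 16 pairs both genes were tested. In 1 pair, MRPS11 and MRPL46, both genes are members. In 7 pairs both were called, and in 5 of these 7 they moved in the same direction. Over all genes tested 38% were called lower and 32.6% higher. How often other pairs of called genes agree in direction was not counted, so the 5 of 7 have no background. MRPL13 and MTBP were both higher, with MTBP at 52.1 CPM in control and 160 CPM in siAARS1 cells (log2 fold change 1.60) against 0.20 for MRPL13. MRPL50 and ZNF189, a zinc finger gene 259 bases away, were both higher, at 0.71 and 1.08. MRPL32 was higher with PSMA2, a proteasome subunit (0.20 and 0.24), while MRPL49 and FAU, which encodes a cytosolic ribosomal protein fused to a ubiquitin-like one, were both lower (-0.20 and -0.25), as were MRPL21 and IGHMBP2 (-0.14 and -0.17). In the other direction, MRPL43 was lower at -0.29 and TWNK, the mitochondrial DNA helicase, higher at 0.36, and MRPS34 was lower at -0.13 and EME2 higher at 0.33. None of the member calls in these 7 pairs held in every setting. MRPL50 was called lower under the GC and length correction (-0.49), and MRPL43 was called under neither correction (-0.014 and 0.062). MRPL21 was not called by edgeR (adjusted p = 0.0830) or under either correction, MRPL49 was called higher under the coding sequence and 3' UTR correction (0.12) and MRPS34 under both corrections (0.22 and 0.31), while MRPL13 and MRPL32 were at -0.029 and -0.025 after median scaling. These pairs were chosen by position alone, and whether partners move together more than other neighbours was not tested. Where the genes of a pair overlap, reads may have been counted for either.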
